A study of Mus musculus with 48 samples.

Results

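The transcripts described here are those of 9 genes chosen by symbol among the 20702 genes named on the arrays: the claudins Cldn1, Cldn2, Cldn3, Cldn4, Cldn7 and Cldn15, occludin (Ocln), zonula occludens 1 (Tjp1) and junctional adhesion molecule A (F11r). Each gene had 1 transcript cluster, the set of probes that measures a gene, so no choice between clusters was needed. The clusters were 10438769 for Cldn1, 10602033 for Cldn2, 10526241 for Cldn3, 10534395 for Cldn4, 10377673 for Cldn7, 10526514 for Cldn15, 10411668 for Ocln, 10564343 for Tjp1 and 10351623 for F11r.

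Claudins are small membrane proteins with several spans that form the strands of the tight junction, the seal between neighbouring epithelial cells. Some claudins close the path between cells and others form pores in it that let ions or water through. Occludin and the junctional adhesion molecules sit beside the claudins in the membrane, and the zonula occludens proteins tie all of them to the actin cytoskeleton. In the intestine the junctions separate the gut lumen from the tissue below, and in the liver they separate bile in the canaliculi from blood.

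RNA was measured in 24 gut and 24 liver samples of male C57BL/6J mice. All recipients ate a normal diet and had received a faecal transplant from donors on a High Fat (HF), a ketogenic (KD) or a Normal Chow (NC) diet, so the NC recipients were transplanted animals too, not untreated ones. Tissue was taken at ZT0 or ZT12, counted in hours from the start of the light phase of a cycle of 12 hr light and 12 hr darkness, which made 12 groups of 4 arrays. The labels mention germ free mice and antibiotics, but do not say whether these recipients were germ free or treated, give no age beyond age-matched, and do not describe the ketogenic diet. They write the gut sample as DI without spelling it out.

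A level below is log2(intensity + 16) after quantile normalisation, within a tissue unless stated, and a difference is a difference of such levels with its standard error. Tests are limma's moderated test with Benjamini-Hochberg adjustment over all 20702 genes and a threshold of 0.05. Only the codes in the titles tell one sample from another, so the p-values measure the spread between these samples, which may be technical. In whole tissue, fewer cells of a type and less RNA per cell cannot be told apart. Median intensity per array was 124.9 to 135.8 in gut and 88.2 to 104.4 in liver. The gut samples carried high levels of the enterocyte genes Vil1 and Sis and of the ileal genes Fabp6 and Slc10a2 (means of 12.3, 13.2, 13.3 and 11.5 on the scale of all 48 arrays), while Pdx1 of the duodenum had a mean of 6.14, under the level that marks unexpressed genes. The other gene listed for the proximal small intestine, Gata4, had a mean of 7.68 in gut (6.18 to 8.90 over arrays), above it. That mark is the 95th percentile of 1098 olfactory receptor genes, a family that is silent in most tissues: 7.17 in gut and 6.90 in liver, or 6.99 and 7.09 on the scale of all 48 arrays. The 6 hepatocyte markers had means between 13.2 and 13.9 in liver.

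Most members differed in level between gut and liver. Only Cldn1 in gut had a mean at or below the mark for unexpressed genes. With all 48 arrays on a common scale, 7 of the 9 members were higher in gut, against 34.3% of all genes, and 2 were higher in liver, against 52% of all genes. The call rate is high for any gene here, since 86.4% of all genes differed between the tissues, so the sizes tell more than the counts. The median difference of the members was 1.37, beside -0.10 over all genes. The sizes depend on the scaling. With the values as deposited, gut minus liver was 0.92 for Cldn3, 4.05 for Cldn7 and -2.91 for Cldn1. On the common scale it was 0.53, 3.73 and -3.29. Relative to the median of all genes the values were 0.66, 3.79 and -3.17 as deposited, and 0.63, 3.83 and -3.19 on the common scale.

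Cldn7, a claudin of the junction and of the lateral membrane of intestinal epithelium, had the largest difference of the members higher in gut. It lay between 11.7 and 12.0 on the 24 gut arrays and between 7.79 and 8.36 on the 24 liver arrays. The difference was 3.73 ± 0.03, or 13.2-fold (adjusted p = 4.0e-50). Cldn15, which forms a cation pore of the small intestine, was next among them with gut levels of 10.6 to 11.1 and liver levels of 7.35 to 7.84, a difference of 3.26 ± 0.04 or 9.60-fold. The highest liver array lay far below the lowest gut array for both genes.

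Cldn4, a sealing claudin, ranged from 8.73 to 9.83 in gut and from 7.27 to 7.64 in liver, 4.19-fold apart. Ocln ranged from 9.70 to 10.3 in gut and from 7.36 to 8.82 in liver, 3.57-fold apart on average over the times. F11r, an immunoglobulin-type adhesion protein, ranged from 10.1 to 10.5 in gut and from 8.76 to 9.15 in liver, 2.59-fold apart. Tjp1 ranged from 9.77 to 10.2 in gut and from 8.70 to 9.26 in liver, a difference of 0.998 ± 0.03. None of these ranges overlapped, and with Cldn1 below that made 7 of the 9 members, against 30.9% of all genes.

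Cldn3, a sealing claudin that hepatocytes also express, was the exception among the members higher in gut. Its gut levels of 9.56 to 10.4 overlapped its liver levels of 9.15 to 9.67, and the difference was 0.53 ± 0.04, or 1.44-fold (adjusted p = 2.8e-16). In the 3 comparisons at ZT0 the difference was 0.61 to 0.68, and in the 3 at ZT12 it was 0.38 to 0.44.

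Cldn1, a sealing claudin, went the other way. Its liver levels lay between 8.98 and 11.1. In gut its levels of 6.57 to 7.07 were at or below the mark for unexpressed genes on 20 of 24 arrays. The liver mean was thus at least 9.06-fold above that mark, and the difference between the measured means was -3.29 ± 0.05 (adjusted p = 7.4e-43). By donor diet the liver mean was at least 15.0-fold to at least 15.7-fold above the mark at ZT0, and at least 5.05-fold to at least 5.50-fold at ZT12. With gut levels at the mark the size of the Cldn1 difference is only bounded from below, so it is not ranked against those of the other members.

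Cldn2, which forms a pore for cations and water, had no settled direction between the tissues. Its gut levels spread from 8.63 to 10.1 (SD 0.38, n = 24) and its liver levels from 9.43 to 10.1. On the common scale gut minus liver was -0.23 ± 0.09 (adjusted p = 0.014), but with the deposited values or with each tissue normalised alone gut was higher by 0.16 (adjusted p = 0.085 and 0.079). Those scalings moved the median of all genes from -0.10 to 0.26. Relative to that median the Cldn2 difference was -0.13 on the common scale and -0.10 under the other scalings. In none of the 6 groups of donor diet and time did Cldn2 pass the test by itself, while the other 8 members passed it in every group. Of all genes, 67.5%, 65.5% and 68.7% did so at ZT0 in NC, HF and KD recipients, and 68.6%, 65.8% and 67.4% at ZT12.

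**Figure D1:**
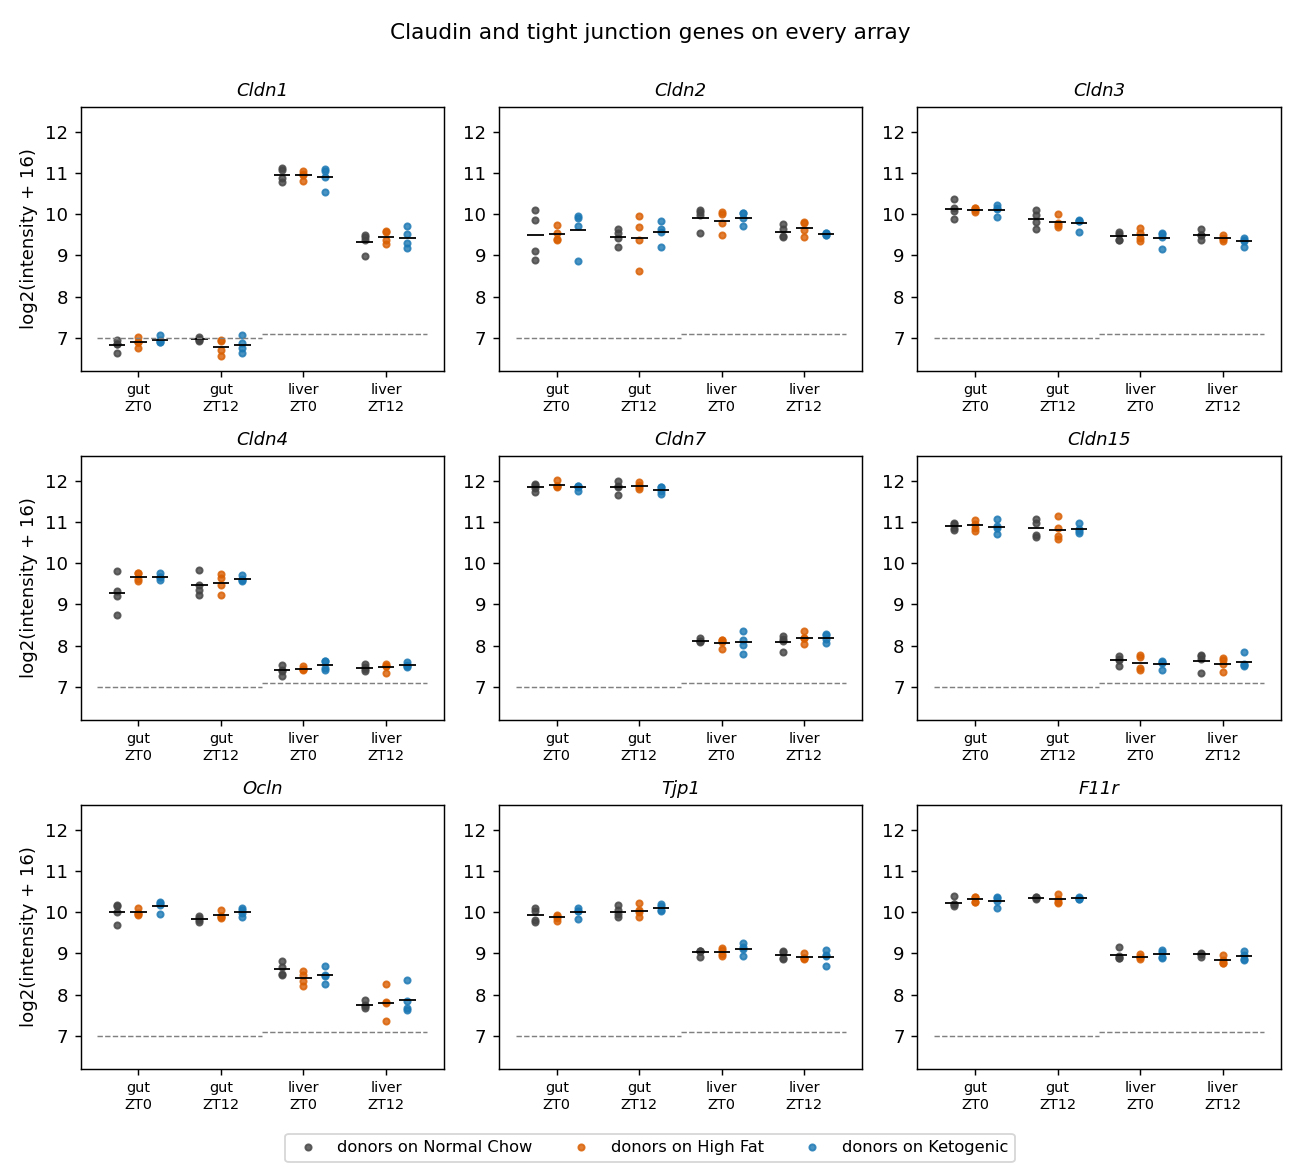
Level of each of the 9 genes, as log2(intensity + 16) normalised over all 48 arrays, on every array of gut and liver at ZT0 and ZT12. Points are arrays coloured by donor diet, short lines are means of 4 arrays, and dashed lines are the 95th percentile of olfactory receptor genes in each tissue. Cldn1 lies at the dashed line in gut, and falls between the times in liver.

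Other junction genes gave the setting for these values. Of 69 listed genes, 67 had a cluster, and 40 were higher in gut and 23 in liver. That was 94% called, beside 86.4% of all genes. Over all genes, 34.3% were higher in gut and 52% in liver. The genes named had the largest log2 differences among those past the threshold, up to 6 in each direction. Toward gut, Cdh17, the liver-intestine cadherin, was at least 42.9-fold higher, Epcam, a membrane protein that stabilises Cldn7, at least 29.7-fold, and the membrane protease St14 at least 12.9-fold, because all 3 lay at or below the mark for unexpressed genes in liver. The St14 inhibitor Spint1 differed by 3.90 ± 0.03, the polarity scaffold Patj by 2.34 ± 0.03 and the desmosomal plaque protein Dsp by 2.23 ± 0.04. Toward liver, the adhesion protein Nectin1 differed by -1.43 ± 0.03, Cldn12 by -1.09 ± 0.03, the cingulin-like Cgnl1 by -0.80 ± 0.03 and the angiomotin-like Amotl2 by -0.63 ± 0.04. The tricellular protein Ildr2 was at least 1.29-fold higher in liver, and Cldn10 lay at or below the mark in each tissue, so no fold is given. By list, 13 of 14 adherens junction and desmosome genes were higher in gut and 1 in liver. The split was 17 to 9 among 26 scaffolds and regulators, 4 to 1 among 5 genes of the junctional adhesion and CTX family and 3 to 2 among 5 tricellular and MARVEL genes. Of the genes so counted, Jam3, Esam, Magi2 and Rab13 lay at or below the mark in both tissues. Among the 17 other claudins measured, 3 were higher in gut and 10 in liver, and 12 lay at or below the mark in gut and 12 in liver, 10 of them in both.

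In liver 4 members were lower at ZT12, and in gut 1 was. Averaged over the 3 donor diets, those of the liver were Cldn1, Ocln, Cldn2 and Tjp1, and no member was higher. These 4 of 9 compare with 28.3% of all genes called in either direction and 15.1% called lower. The other 5 members had differences between -0.04 and 0.06. The median over the 9 members was -0.04, beside 0.01 over all genes.

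Cldn1 in liver separated the times completely. In NC recipients its levels at ZT0 were 10.61, 10.94, 10.90 and 10.71, and at ZT12 they were 9.15, 8.77, 9.24 and 9.29. In HF recipients they were 10.63, 10.77, 10.88 and 10.80 at ZT0, and 9.36, 9.39, 9.05 and 9.15 at ZT12. In KD recipients they were 10.86, 10.73, 10.93 and 10.38 at ZT0, and 8.98, 9.30, 9.10 and 9.52 at ZT12. All 12 arrays of ZT0 lay above all 12 of ZT12, which held for 2.86% of all genes. The difference averaged over diets was -1.57 ± 0.07, a level 2.97-fold lower at ZT12 (adjusted p = 8.9e-14). By diet the NC value was -1.67, the HF value -1.53 and the KD value -1.502, each past the threshold (SE 0.13).

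Ocln, whose protein spans the membrane of the same strands, fell less and less evenly. In NC recipients its levels were 8.28, 8.45, 8.60 and 8.26 at ZT0 and 7.56, 7.53, 7.48 and 7.67 at ZT12. In HF recipients they were 8.001, 8.25, 8.12 and 8.36 at ZT0 and 7.61, 8.05, 7.62 and 7.17 at ZT12. In KD recipients they were 8.23, 8.48, 8.26 and 8.06 at ZT0 and 7.44, 8.15, 7.47 and 7.65 at ZT12. The times did not overlap in NC recipients, whereas HF replicate 9 and KD replicate 10 of ZT12 reached into the range of ZT0. The averaged difference was -0.67 ± 0.09, or 1.59-fold lower (adjusted p = 2.5e-06). By diet it was -0.84 (adjusted p = 0.00055), -0.57 (adjusted p = 0.018) and -0.58 (adjusted p = 0.014) in NC, HF and KD recipients. The HF call was lost without HF replicate 5 of ZT0 or 13 of ZT12 (adjusted p = 0.062 and 0.089), and the KD call without KD replicate 3 of ZT0 or 8 or 12 of ZT12 (adjusted p = 0.057 to 0.063).

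Cldn2 had a difference of -0.32 ± 0.07 averaged over diets, 1.25-fold (adjusted p = 0.0024). Its range over diets was 9.28 to 9.93 at ZT0, with a median of 9.81, and 9.23 to 9.62 at ZT12, with a median of 9.34, so the times overlapped. By diet only KD recipients passed the threshold (-0.42 ± 0.13, adjusted p = 0.045), with values of -0.36 in NC (adjusted p = 0.083) and -0.17 in HF recipients (adjusted p = 0.46). The KD call was lost when any one of 11 of the 24 arrays was left out, 7 of them KD arrays and the others HF replicate 5 and NC replicate 4 of ZT0 and HF replicate 9 and NC replicate 8 of ZT12 (adjusted p = 0.051 to 0.12). The KD arrays were replicates 3, 5 and 7 of ZT0 and all 4 of ZT12.

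Tjp1, the scaffold that binds claudins and occludin, was at the edge of the threshold. It ranged from 8.71 to 9.05 at ZT0 and from 8.48 to 8.87 at ZT12, a difference of -0.13 ± 0.05 (adjusted p = 0.041). No diet passed by itself. The call was lost without any one of 15 arrays: HF replicates 2 and 5, KD replicates 1, 3 and 5 and NC replicates 4, 5 and 6 of ZT0, and HF replicates 7, 10 and 13, KD replicates 8 and 12 and NC replicates 8 and 11 of ZT12 (adjusted p = 0.054 to 0.082). Cldn3, Cldn4, Cldn7, Cldn15 and F11r did not pass the test in liver under any donor diet. The members called were 2, 2 and 3 in NC, HF and KD recipients, where 9.09%, 7.85% and 8.65% of all genes were called.

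**Figure D2:**
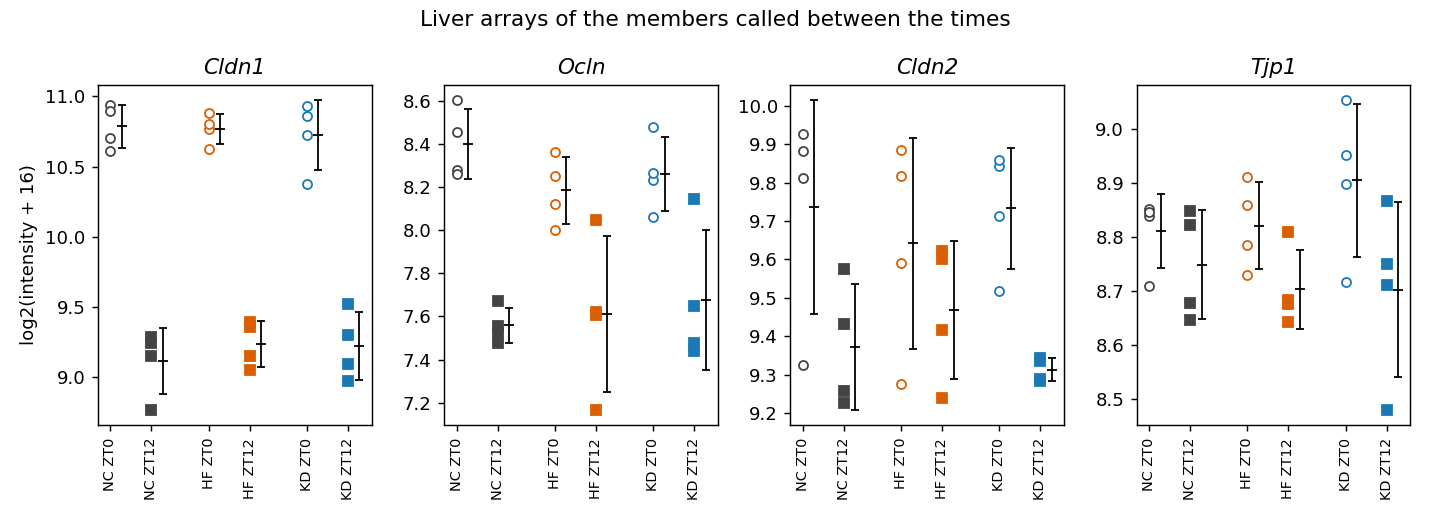
Liver level, as log2(intensity + 16), of the 4 members called between the times, by donor diet. Open circles are ZT0 arrays, filled squares are ZT12 arrays, and bars are the mean ± SD of 4 arrays. Cldn1 separates the times in every diet, Ocln overlaps in HF and KD recipients, and Cldn2 and Tjp1 overlap more.

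Cell type markers in liver differed between the times as well. Of all genes in liver, 15.1% were called lower at ZT12 and 13.2% higher, averaged over diets. The 6 hepatocyte markers had a median difference of -0.01, with 2 higher and 1 lower, and the mean of the list lay between 13.4 and 13.5 in all 6 groups. Of 5 cholangiocyte markers, 2 were lower, with Sox9 at -0.41 ± 0.06, the list median was -0.28 and none was higher. The list mean of single arrays ran from 7.84 to 8.16 at ZT0 and from 7.67 to 7.83 at ZT12, and Krt19 and Krt7, which define bile duct cells, lay at or below the mark for unexpressed genes. Of 5 endothelial markers, 4 were lower, with a list median of -0.28 and array means of 8.18 to 8.75 at ZT0 and 8.11 to 8.53 at ZT12. Of 4 macrophage markers, 2 were lower, with a list median of -0.30, and of 6 smooth muscle markers 3 were (list median -0.06). The part of these markers in the member values was not tested.

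The promoters of the 3 members with the largest liver differences are shown so that the bases before each start can be read beside the values. They are the 250 bases before the transcription start in RefSeq, build GRCm38.p6, written 5′ to 3′ on the strand of the gene. Capitals mark matches on either strand to any of 6 short motifs: the E-box CACGTG bound by clock activators, the D-box TTATGTAA bound by PAR bZIP factors, the AGGTCA element of ROR and REV-ERB receptors, the GC box GGGCGG, the TATA box TATAAA, and TTTATG as a site of the intestinal factor CDX. The E-box occurred in 6.02% of all 32851 such windows, the D-box in 0.819%, the AGGTCA element in 14.0%, the GC box in 32.7%, the TATA box in 12.4% and the CDX letters in 10.8%. The last share letters with the D-box, but no match overlapped another here.
Cldn1 (chr16:26371840-26372089, minus strand): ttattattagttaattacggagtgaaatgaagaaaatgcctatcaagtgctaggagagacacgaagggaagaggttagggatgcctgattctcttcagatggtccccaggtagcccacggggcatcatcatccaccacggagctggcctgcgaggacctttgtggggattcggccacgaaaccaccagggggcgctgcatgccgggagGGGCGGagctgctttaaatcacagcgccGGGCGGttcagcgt
Ocln (chr13:100552719-100552968, minus strand): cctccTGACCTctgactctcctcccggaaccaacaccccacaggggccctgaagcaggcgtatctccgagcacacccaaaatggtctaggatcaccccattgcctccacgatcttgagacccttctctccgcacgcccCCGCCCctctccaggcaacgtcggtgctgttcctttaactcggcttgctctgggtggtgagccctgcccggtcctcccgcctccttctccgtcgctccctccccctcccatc
Cldn2 (chrX:139800558-139800807, plus strand): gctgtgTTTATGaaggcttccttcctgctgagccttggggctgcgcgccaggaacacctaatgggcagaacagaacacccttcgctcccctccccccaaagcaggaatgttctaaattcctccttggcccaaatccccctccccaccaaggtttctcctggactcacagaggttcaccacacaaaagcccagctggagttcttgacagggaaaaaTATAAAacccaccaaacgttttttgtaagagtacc
Cldn1 has GC boxes starting 42 and 14 bases before the start and no match to the other 5 motifs. The Ocln window, the first of 2 starts in the table, has an AGGTCA element at 245 bases and a GC box at 112 bases before the start. Cldn2 has the CDX letters at 244 bases and a TATA box at 35 bases before the start, and it was the only one of the 9 genes with either. None of the 9 genes had the E-box or the D-box in its windows. AGGTCA was searched as those letters alone, without flanking bases, so a match is not shown to be a full ROR or REV-ERB element. A match is a description of the letters, and the absence of a match says nothing about a factor beyond this window.

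In gut, averaged over diets, 1 of 9 members was called between the times, against 21.5% of all genes, and by diet 0 of 9 were called by limma, against 2.39%, 3.32% and 3.99% of all genes in NC, HF and KD recipients. At unadjusted p under 0.05, 1 of 9 members passed in each diet, and it was Cldn3 each time, against 14.9%, 19.3% and 20.7% of all genes in NC, HF and KD recipients. The members' median was -0.03 and that of all genes -0.0026.

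Cldn3 in gut was lower at ZT12. Its levels were 10.26, 10.07, 10.53 and 10.33 at ZT0 and 9.85, 10.27, 10.01 and 10.16 at ZT12 in NC recipients. In HF recipients they were 10.23, 10.27, 10.31 and 10.31 at ZT0 and 9.98, 9.92, 9.89 and 10.18 at ZT12. In KD recipients they were 10.11, 10.30, 10.30 and 10.38 at ZT0 and 9.77, 10.03, 10.03 and 10.06 at ZT12. The times did not overlap in HF and KD recipients but did in NC recipients. The averaged difference was -0.27 ± 0.06, or 1.21-fold lower (adjusted p = 0.0015), and the values by diet were -0.23, -0.28 and -0.30 (adjusted p = 0.27, 0.10 and 0.080).

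Ocln in gut had a difference of -0.12 ± 0.05 (adjusted p = 0.080) and Tjp1 one of 0.11 ± 0.05 (adjusted p = 0.089). F11r had 0.06, Cldn15 -0.07, Cldn2 -0.06, Cldn1 -0.03, Cldn7 -0.02 and Cldn4 0.0050, none past the threshold. Cldn1 was near the mark for unexpressed genes in gut at both times, so its gut value carries little. A second member was called when KD replicate 5, NC replicate 3 or NC replicate 4 of ZT0 or HF replicate 10 of ZT12 was left out. Of all genes in gut, 11.2% were called lower at ZT12 and 10.3% higher, averaged over diets. Of 5 endothelial markers, 4 were also lower in gut at ZT12 (list median -0.28), and 3 of the 5 lay at or below the mark there. The ileal list went the other way, with Slc10a2, the bile acid transporter of the ileum, higher by 0.92 ± 0.17 (adjusted p = 0.00066) and Fabp6 at 0.09 ± 0.06. The mean of that list ran from 11.7 to 12.5 over the arrays of ZT0 and from 12.3 to 12.9 over those of ZT12. Of 7 enterocyte markers 2 were higher (list median 0.04), and of 6 hepatocyte markers Alb was lower (-1.35 ± 0.41, list median -0.53). Among T cell and crypt markers 1 gene each was lower, and macrophage markers had 1 in each direction. The part of these lists in the Cldn3 value was not tested.

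**Figure D3:**
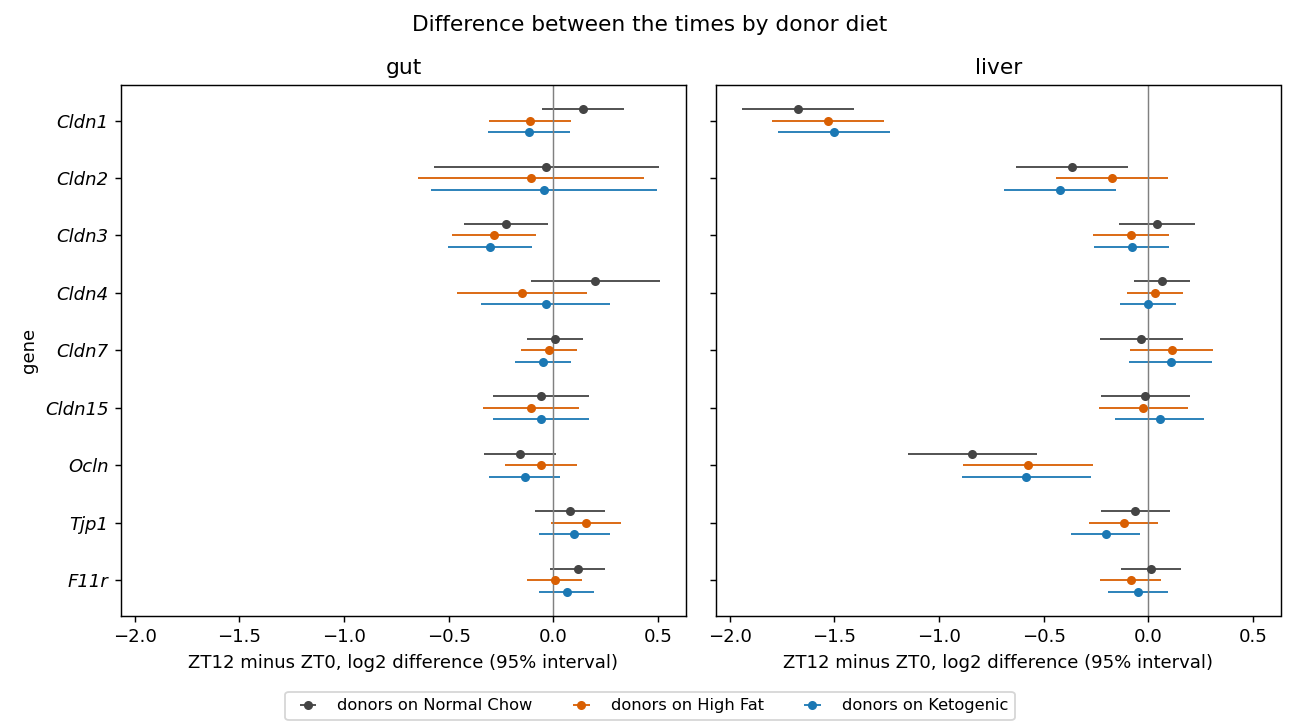
Difference between ZT12 and ZT0 on the log2 scale for each of the 9 genes in gut and liver, by donor diet. Points are estimates from 4 against 4 arrays, and bars are 95% intervals. Cldn1 and Ocln lie below 0 in liver for all 3 diets, and Cldn3 lies below 0 in gut.

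The difference between the tissues in their time difference was tested directly over all 48 arrays, where 17.6% of all genes were called. It was called for 4 of 9 members. The gut difference exceeded the liver difference for Cldn1 by 1.51 ± 0.09 (adjusted p = 4.8e-16), for Ocln by 0.55 ± 0.11 (adjusted p = 0.00012) and for Tjp1 by 0.25 ± 0.07 (adjusted p = 0.0073). For Cldn3 it was below the liver difference, at -0.25 ± 0.08 (adjusted p = 0.019). Cldn2 did not pass this test (0.23 ± 0.18, adjusted p = 0.42), so its change in liver is not shown to differ from its value in gut. For Cldn1, gut levels were at or below the mark for unexpressed genes on 20 of 24 arrays. A fall of Cldn1 in gut could thus hardly be seen, and its value in this test mostly restates the fall in liver.

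Junction genes outside the 9 members moved too. In liver 21 of 67 were lower and 6 higher at ZT12 averaged over diets, that is 40.3% called beside 28.3% of all genes, with a median of -0.03 beside 0.01. By diet the other junction genes called were all lower: 13 for NC, 14 for HF and 10 for KD donors. These were 19.4%, 20.9% and 14.9% of the 67. Over all genes, 4.85%, 4.7% and 5.31% were called lower, and 9.09%, 7.85% and 8.65% in either direction. Tjp3, zonula occludens 3 and a relative of Tjp1, lay between 8.62 and 8.99 at ZT0 and between 7.35 and 7.88 at ZT12, with no overlap, and its difference was -1.16 ± 0.06 (adjusted p = 1.2e-13).

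The next largest were Nectin1 (-0.80 ± 0.05), the coxsackievirus and adenovirus receptor Cxadr, an adhesion protein of the junction (-0.71 ± 0.07), the desmosomal Pkp2 (-0.57 ± 0.06) and the cytoplasmic junction protein cingulin, Cgn (-0.52 ± 0.04). Tjp3 and each of these were called in every donor diet. Marveld2, which encodes the tricellular protein tricellulin and neighbours Ocln in the RefSeq annotation, had a liver difference of -0.40 ± 0.05 (adjusted p = 1.4e-06), and was picked after its value was seen.

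Higher in liver at ZT12 were Ildr2 (0.30 ± 0.09), Cldn20 (0.18 ± 0.05), Cldn12 (0.16 ± 0.05) and the desmosomal cadherin Dsg2 (0.15 ± 0.05). Cldn6 and Cldn10 were called higher too, but Cldn6 lay at or below the mark for unexpressed genes on all 12 arrays of each time and Cldn10 on 10 and 6 of them. By list, 4 of 17 other claudins were higher and 0 lower by limma, where 13.2% of all genes were higher and 15.1% lower. Among the tricellular and MARVEL genes 1 of 5 was higher and 2 were lower, and 4 of 5 genes of the junctional adhesion and CTX family were lower. So were 8 of 26 scaffolds and regulators and 7 of 14 adherens junction and desmosome genes. Another 1 of those 14 genes was higher. Esam of the junctional adhesion and CTX family lay at or below the mark on 4 of 12 arrays of ZT0 and 10 of ZT12.

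In gut 12 of 67 other junction genes were lower and 9 higher, 31.3% called beside 21.5% of all genes. Cldn8, a sealing claudin, had the largest difference. It lay between 7.30 and 8.25 on the 12 arrays of ZT0, and at or below the mark for unexpressed genes on all 12 of ZT12, so that it was at least 1.52-fold lower (adjusted p = 6.0e-08), and it was called in each donor diet. Next came differences for Tjp3 of -0.37 ± 0.05, the DNA and RNA binding junction partner Ybx3 of -0.31 ± 0.05, Amot of -0.24 ± 0.07 to a level at the mark, and Nectin1 of -0.17 ± 0.05. Tjp3 and Nectin1 were thus lower at ZT12 in each tissue, and more so in liver, by 0.78 and 0.62 in the test between the tissues (adjusted p = 3.0e-10 and 4.0e-09). Higher in gut were the polarity protein Pard6b (0.21 ± 0.06), Spint1 (0.20 ± 0.04), Magi3 (0.19 ± 0.04), Dsg2 (0.17 ± 0.04) and Cxadr (0.15 ± 0.04), and Cldn10, which lay at or below the mark. Cxadr, Magi3 and Pard6b were lower in liver, and their time differences differed between the tissues by 0.84, 0.43 and 0.42 (adjusted p = 7.7e-11, 4.3e-08 and 2.7e-05).

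**Figure D4:**
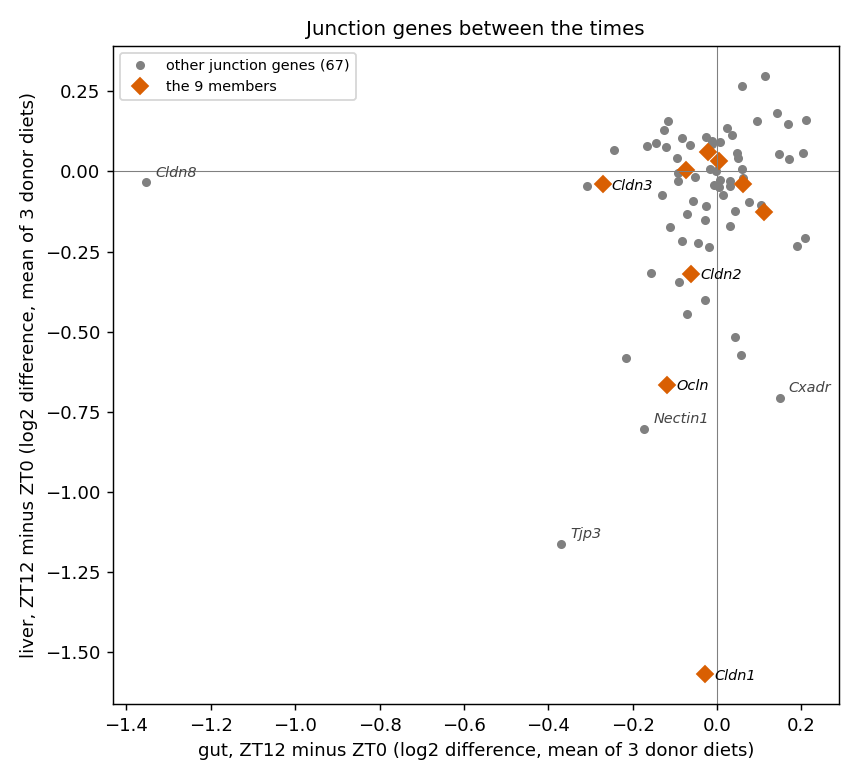
Difference between ZT12 and ZT0 averaged over 3 donor diets, on the log2 scale, in gut (horizontal axis) and liver (vertical axis). Orange diamonds are the 9 members and grey circles are 67 other junction genes. Cldn1, Tjp3, Nectin1, Cxadr and Ocln lie low on the liver axis, and Cldn8 alone lies far to the left on the gut axis.

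The donor diet changed none of the 9 genes past the threshold. Each tissue had 8 donor comparisons, made of every pair of diets at ZT0 and at ZT12 and of how far the differences of HF and of KD recipients from NC recipients changed between the times. Limma called 0 of 9 members in all 16, where it called 0% of all genes in 14 and 0.00483%, a single gene, in the others. At unadjusted p under 0.05 there were 2 of 72 values in gut and 2 of 72 in liver, 2.78% in each, against 5.83% of such values of all genes in gut and 3.86% in liver. The smallest adjusted p was 0.57 in gut and 0.93 in liver. The comparisons against NC share the NC arrays.

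The values behind those 4 were as follows. In gut at ZT0, Cldn4 was 9.53, 9.42, 8.95 and 10.01 in NC recipients, 9.95, 9.83, 9.96 and 9.77 in HF recipients and 9.86, 9.79, 9.86 and 9.96 in KD recipients. The NC arrays alone were spread widely, and NC replicate 6 lay above every HF and KD array. The differences were 0.40 ± 0.15 for HF (unadjusted p = 0.014, limma adjusted p = 0.999, 95% interval 0.09 to 0.71) and 0.39 ± 0.15 for KD (unadjusted p = 0.016). At ZT12 they were 0.05 and 0.15. In liver the values were Cldn4 in KD against NC at ZT0 (0.13 ± 0.07, unadjusted p = 0.0499) and F11r in HF against NC at ZT12 (-0.15 ± 0.07, unadjusted p = 0.046).

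The authors' deposited table gave Cldn4 in gut at ZT0 a ratio of 1.29 for KD over NC (p = 0.021) and 1.26 for HF over NC (p = 0.084). In the authors' deposited table Ocln in gut at ZT12 had a ratio of 1.12 for KD over NC with p = 0.028. Adjusted over that table, its p became 0.31 and those of Cldn4 became 1.0. Of the 23811 clusters in the authors' deposited table, the same adjustment called 0.882% for HF and 2.78% for KD over NC in gut at ZT12, and 0 in gut at ZT0, where 614 and 619 clusters had a p under 0.05 before adjustment. The limma value for Ocln was 0.16 ± 0.08 (unadjusted p = 0.066).

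The 95% intervals show what 4 against 4 arrays could resolve. For gut Cldn2, the most variable member, the interval reached 0.54 to either side of the estimate, and for liver it was 0.31 at most over the 9 members. The change of a donor difference between the times had intervals of up to 0.76 in gut and 0.44 in liver. For Cldn1 in liver the time difference differed between HF and NC recipients by 0.14 and between KD and NC recipients by 0.17, within those intervals. The other 67 junction genes likewise gave 0 called by limma in all donor comparisons, and between 1 and 4 of them were at unadjusted p under 0.05 in each, against 2.04% to 9.51% of all genes.

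Levels of markers of other cells varied among the gut samples. In gut at ZT12 limma called 0 of 20702 genes for HF against NC recipients, and 1 for KD against NC. At ZT12 the mean of 8 B and plasma cell markers ran from 8.49 to 9.41 over the 4 NC arrays, from 6.47 to 8.52 over the HF arrays and from 6.43 to 6.59 over the KD arrays. At ZT0 the NC arrays ran from 6.67 to 9.36, the HF arrays from 6.69 to 9.15 and the KD arrays from 6.71 to 9.13. Among the 8 markers, Ms4a1 and Mzb1 lay at or below the mark for unexpressed genes on average in gut. The mean of the enterocyte markers in gut ran from 11.6 to 12.1 over arrays. That of the 6 hepatocyte markers in gut ran from 6.77 to 9.71 over arrays, with the highest in NC replicate 1 of ZT0. Without that NC array the members called in gut remained 0 between diets and 1 between times. The part of lymphoid cells in the donor values was not tested.

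**Figure D5:**
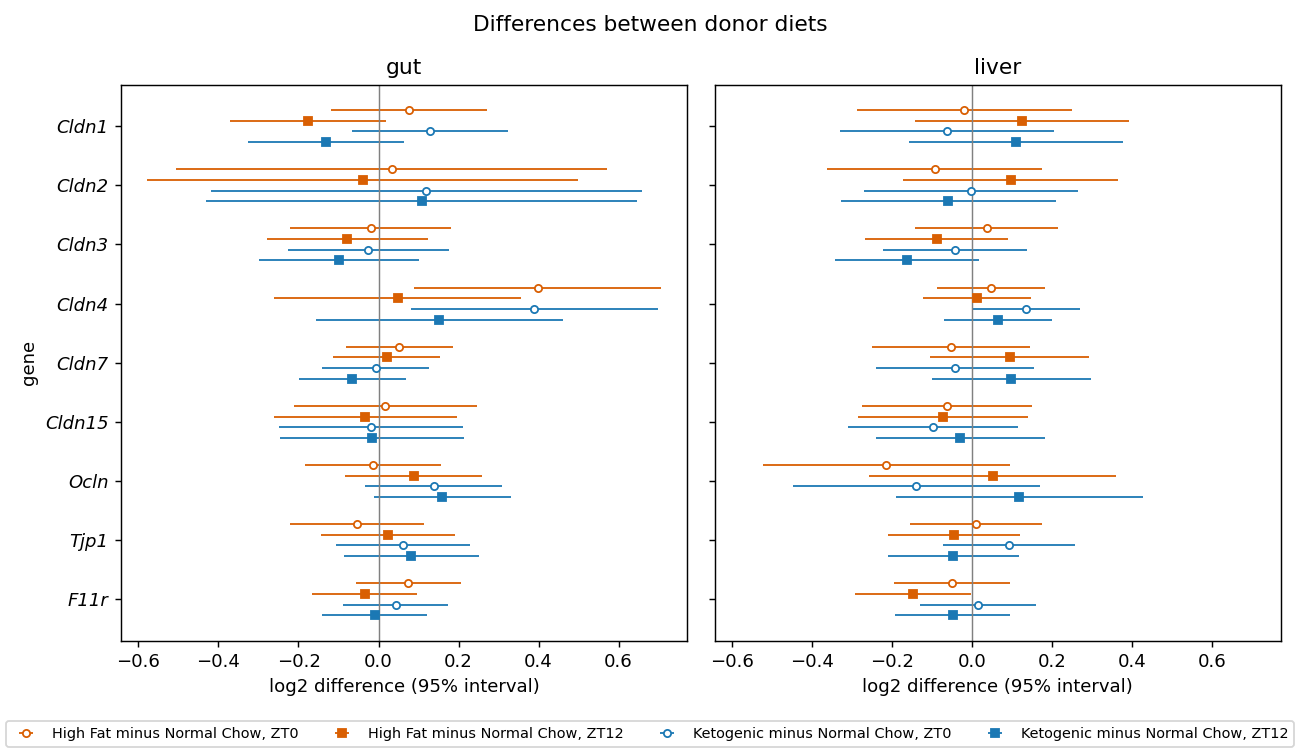
Difference between HF or KD and NC recipients on the log2 scale for each of the 9 genes in gut and liver. Open circles are ZT0, filled squares are ZT12, and bars are 95% intervals. Before adjustment the intervals of gut Cldn4 at ZT0 and of liver Cldn4 for KD at ZT0 lie above 0 and that of liver F11r for HF at ZT12 lies below 0, while the others cross 0.

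Across the 24 gut arrays the members varied with different genes. As a description over arrays that share 6 groups and 2 times, the gene most like Cldn3 was Sympk, which encodes symplekin, a protein of messenger RNA end processing that is also found at tight junctions (Pearson r = 0.928, Spearman rho = 0.924). It was followed by Pcnx3 (r = 0.914) and the endocytic receptor Lrp1 (r = 0.913). For Cldn2 it was Hsd11b2, the enzyme that inactivates glucocorticoids (r = 0.888, rho = 0.843), then Agpat5 (r = 0.852) and the secretory cell protein Agr2 (rho = 0.820). For Cldn15 it was the mitochondrial malate dehydrogenase Mdh2 (r = 0.896, rho = 0.893), and for Ocln it was Nudt4 (r = 0.845). The closest gene for Tjp1 was 6820431F20Rik (r = 0.904), for Cldn7 Arhgef11 (r = 0.821), for Cldn4 Slc25a22 (r = 0.795), for F11r Ovol1 (r = 0.777) and for Cldn1, near the mark for unexpressed genes, Capn2 (r = 0.693).

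Among the members themselves the closest pair in gut was Cldn3 with Cldn7 (r = 0.593, n = 24 arrays), and the most opposed was Cldn2 with Cldn15 (r = -0.513). Cldn3 and Cldn4 are neighbours on chromosome 5 in the RefSeq annotation, yet their levels went with r = -0.142 in gut and -0.449 in liver. The number of arrays limits the precision of all of these values.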

How the data were processed

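Values were linear intensity for each transcript cluster, which the authors made with the PLIER method and deposited, per the submitters' processing notes. The version, the earlier steps and the genome build are not stated in those sources. The authors' deposited comparison tables pair clusters with gene symbols and hold a p-value and a ratio of group means for HF or KD against NC, per the file headers. Of 35556 clusters, 23811 (67.0%) carried a symbol, which was brought up to date through RefSeq accessions (22722), current symbols (691) or older names (108), and 290 were kept unmatched. Of several clusters of a gene the one with the highest mean was used, which left 20702 genes. The 64 further columns of per-sample values in the comparison tables were not used.

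Intensities were offset by 16, log2 transformed and quantile normalised, within a tissue for times and donors and over 48 arrays for gut against liver. The groups were fitted with limma 3.58.1 in R 4.3.3 (lmFit, eBayes, two-sided, 18 residual degrees of freedom in a tissue and 36 over both) and adjusted over all genes. The fit was tested on simulated data. Python 3.11.15 served for tables and motif searches (pandas 2.3.3, numpy 2.4.6), and matplotlib 3.10.9 for the plots. The 9 members and the lists of other junction genes and markers were chosen with earlier results of these data known, and all 9 members are named in every comparison. Named besides them are up to 6 other junction genes per comparison and direction, those past the threshold with the largest log2 difference, except genes that are not reported here, and for each member the genes with the highest Pearson correlation over 24 gut arrays.

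Alternatives were the deposited values, other offsets and filters, an intensity trend, array weights, single clusters, only the groups compared, blocks for title number and mouse, the authors' p-values, and leaving out each array. Deviations of same-numbered arrays had a mean correlation of 0.001 over 16 pairs in gut (-0.271 to 0.46). In liver it was -0.075 over 12 pairs (-0.328 to 0.152). With so few and such spread pairs, these values do not settle whether numbers in the titles pair samples. Of 33 mouse codes in the titles, 15 appear in both tissues, and their arrays had a mean correlation of 0.02.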

Additional observations from a re-analysis of the deposited data

Results flagged for a closer look

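In 4 members the difference between ZT12 and ZT0 was not the same in gut and liver, by a test of that difference: Cldn1 (1.51 in log2, gut minus liver), Ocln (0.55), Tjp1 (0.25) and Cldn3 (-0.25). For Cldn1 the gut levels lay near the mark for unexpressed genes.

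Of 108 groups of 4 arrays examined over the 9 members, 6 held an array far from the other 3, where chance flags about 1 in 20. Cldn7 in gut was 12.13 in HF replicate 4 of ZT0, against 11.95 to 11.98 in the others. F11r in gut was 10.55 in NC replicate 6 of ZT0, against 10.33 to 10.36. Cldn3 in gut was 9.77 in KD replicate 8 of ZT12, against 10.03 to 10.06. In liver Cldn7 was 7.98 in NC replicate 5 of ZT0, against 7.89 to 7.90, Tjp1 was 8.71 in NC replicate 1 of ZT0, against 8.84 to 8.85, and Cldn15 was 7.64 in KD replicate 12 of ZT12, against 7.31 to 7.35. The 6 arrays were all different ones.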

How the results depend on the processing

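With 4 arrays in a group, and signals close to the background for Cldn1 in gut, small differences were not resolved. The 7 members higher in gut, the 4 whose time difference differed between the tissues and the 0 called between donor diets kept their number with any array left out. They also kept it under every alternative run for them. The mouse as a fixed block was run only for gut against liver. Members higher in liver numbered 1 in place of 2 with the deposited values, with each tissue normalised alone and with the mouse as a fixed block, since Cldn2 then came to 0.163 (adjusted p = 0.085), 0.162 (adjusted p = 0.079) and -0.085 (adjusted p = 0.26). For the times in gut, members called numbered 2 with array weights when averaged over diets, 1 with the deposited values or array weights in KD recipients, and 1 to 2 with an array left out. In liver they numbered 3 to 4 averaged, 2 to 3 in NC, 1 to 2 in HF and 1 to 3 in KD recipients with an array left out. A replicate block on the title number left 1 member called, Cldn1 (-0.97), averaged and in each diet. The block joins the times only through arrays numbered 7, and under it the averaged values were -0.43 for Ocln (adjusted p = 0.26), 0.031 for Cldn2 and 0.16 for Tjp1. Samples share only that number, and in gut no number occurs at both times, so the block gave no value there. The fit of only the groups compared lost Ocln in KD recipients (adjusted p = 0.059), and the deposited values and an offset of 1 lost Cldn2 in KD recipients (adjusted p = 0.053 and 0.056). The cause of these changes was not tested.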
